A study of Homo sapiens with 16 samples.

Results

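Sorafenib alone was compared with its solvent DMSO after 24 h in MDA-MB-231 cells, an established human line from a triple-negative, mesenchymal breast carcinoma. Members were the libraries labelled with these treatments and this time, 4 of the 16 in the series, with 2 in each group. Sorafenib was given at 1 µM, and all cells, controls included, grew in serum-containing DMEM and were lysed as sub-confluent dishes. The other groups used below were sorafenib alone at 1 µM and DMSO at 8 h, methyl methanesulfonate (MMS, a DNA-alkylating agent) at 24 h, and a combination in which 1 µM sorafenib was given 12 h ahead of MMS and RNA was taken 24 h after MMS. For MMS the sources differ on the dose, 40 µg/mL in the series text against 40 µM in the labels. A single cell line was used. The study's title frames the question around inflammation and angiogenesis under low doses of sorafenib with alkylating agents.

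Sorafenib is a kinase inhibitor that binds the RAF kinases, which pass signals from RAS through MEK to the kinase ERK, and several growth factor receptors, among them those for VEGF and PDGF. ERK drives transcription of the ETS factors and of the AP-1 subunits FOS and FOSL1, and also of its own brakes, the dual-specificity phosphatases (DUSP) and the Sprouty and SPRED proteins, so that messages of these genes are read as a measure of ERK output. MDA-MB-231 cells carry an activating BRAF mutation, and their high interleukin, protease and VEGF expression is tied in part to this pathway.

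Each library held between 17608284 and 23557101 reads counted in genes, and 13948 of 23228 genes passed the filter on low counts. Of 8 markers chosen for the line, 7 were abundant in all 4 libraries (VIM at 2010 to 2420 CPM, counts scaled to library size), but SPARC stayed below 1 CPM. The oestrogen receptor gene ESR1 was at most 0.223 CPM, whereas ERBB2 (72.6 to 99.8 CPM) and KRT19 (174 to 301 CPM), listed as low, were clearly present. Of 14 markers of fibroblasts, endothelium and leukocytes, COL1A2, COL3A1, DCN, VWF, CD3E and PTPRC were at most 1.35 CPM in all 4 libraries. COL1A1 (13 to 18.5 CPM), PDGFRB (7.29 to 12.1 CPM), CD14 (3.97 to 13.9 CPM) and CD68 (99.95 to 163 CPM) were detected in each. Sample titles begin in 2 ways, once in each group, and the series text speaks of 2 independent experiments. The libraries are therefore called experiment 1 (titles starting MDA231) and experiment 2 (MDAMB231) here, although no label states this link, and p-values measure only the spread between these libraries. Expression differences between the title starts recurred in every group, so each result is given from 2 fits, without and with a replicate block for the title start.

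At 24 h sorafenib lowered messages of ERK feedback regulators such as DUSP6 and SPRY4, of the cytokines IL1A, IL1B, CSF2 and CSF3, of the collagenase MMP1, of the plasminogen activator PLAT and of VEGFA, and raised a smaller set led by the adhesion gene CDH1 and the transcription factor gene ATOH8. Without the block 34 genes rose (0.244% of those tested) and 80 fell (0.574%) at a Benjamini-Hochberg adjusted p under 0.05 in edgeR's quasi-likelihood test. With the block 470 rose (3.37%) and 531 fell (3.81%), and all 114 genes called without it were among them. The counts given below for each gene list are to be read beside these shares of all genes. Changes were moderate: 15 of the 34 rises and 30 of the 80 falls reached 2-fold, and with the block 64 and 119 did. For 2394 genes (17.2%) both sorafenib libraries lay above both DMSO libraries, and for 2446 (17.5%) below. Unless the block is named, "fell" and "rose" below refer to the fit without it, log2 changes carry a standard error, and n = 2 libraries a group.

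With only the 4 libraries compared and no block, 5 genes fell and 0 rose. The calls from all 16 libraries without the block depended on each library. They numbered 56 without the DMSO library of experiment 1, 31 without that of experiment 2, 12 without the sorafenib library of experiment 1 and 75 without that of experiment 2. Of the 39 named genes called without the block, CSF3, DUSP4, DUSP6, HBEGF, IL1A, IL1B and SPRY4 were called in all 4 of these fits. The other 32 lost their call without the sorafenib library of experiment 1 (highest adjusted p = 0.615), 16 and 26 of them without the DMSO library of experiment 1 or 2 (up to 0.253 and 0.358), and 12 without the sorafenib library of experiment 2 (up to 0.25). With the block the same omissions left between 363 and 733 calls, of which 109 to 114 belonged to the 114 genes. Of the 57 named genes called with the block only, 19 kept that call in all 4 of these fits and 38 lost it in at least 1. Losses numbered 33 without the sorafenib library of experiment 1 (highest adjusted p = 0.387), 15 without that of experiment 2 (0.196), and 21 and 17 without the DMSO library of experiment 1 or 2 (0.223 and 0.307). SLC40A1, SLC7A5, TFF1, TTK and TXNRD1 lost the call with the block in all 4.

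**Figure D1:**
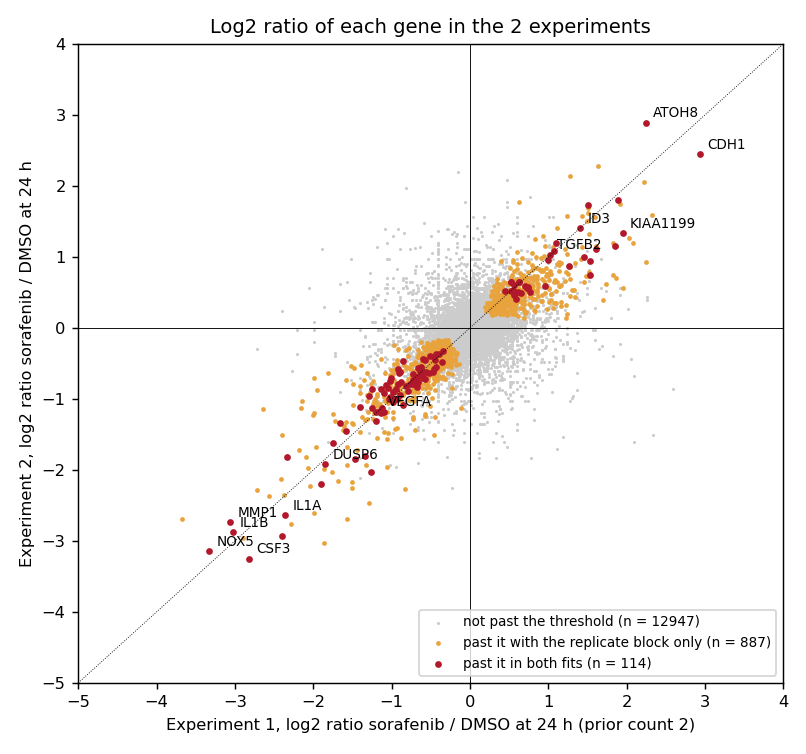
Each point is a gene, placed by its log2 ratio of sorafenib to DMSO in experiment 1 (x axis) and in experiment 2 (y axis), with a prior count of 2 added; colours mark genes past the threshold in both fits, with the block only, or in neither. Genes past the threshold lie along the diagonal, while over all 13948 genes the ratios had a Pearson r of 0.462, given as a description.

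The ratio of sorafenib to DMSO had the same sign in both experiments for 63.9% of all genes tested. For the called genes the sign was the same in 100% of cases, which the choice of these genes largely fixes.

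The ERK output and feedback list gave the most uniform change, although the lists were chosen with earlier results of these data known. Of its 34 members tested, 14 fell and 0 rose, and with the block 28 fell and 0 rose. The median log2 change of the list was -0.67, beside -0.0042 over all genes tested, and 33 members had a negative value. For 30 members both sorafenib libraries lay below both DMSO libraries, against 17.5% of all genes. With the block and any 1 library left out, 19 to 25 members fell. Without the block 4 fell when the sorafenib library of experiment 1 was left out, 9 and 12 without the DMSO library of experiment 2 or 1, and 10 without the sorafenib library of experiment 2.

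DUSP6, the cytoplasmic phosphatase that dephosphorylates ERK, stood at 421 and 425 CPM in the DMSO libraries and at 117 and 113 CPM under sorafenib. The experiments gave nearly the same levels, and DUSP6 fell by 1.88 ± 0.10 on the log2 scale (adjusted p = 2.12e-06). The nuclear phosphatase DUSP4 stood at 880 and 912 CPM and fell to 459 and 457 CPM (log2 change -0.97 ± 0.07, adjusted p = 3.83e-05). SPRY4, a Sprouty inhibitor of receptor-to-RAS signalling, went from 107 and 102 CPM to 45 and 46.5 CPM (-1.19 ± 0.11, adjusted p = 0.000457). These negative regulators of the pathway were all lower in both sorafenib libraries, with no overlap between the groups.

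Other brakes on the pathway followed. ERRFI1, an inhibitor of the EGF receptor, went from 717 and 821 CPM to 311 and 362 CPM (-1.19 ± 0.17, adjusted p = 0.00605). The nuclear phosphatase DUSP5 (-1.28 ± 0.22), the RAS-RAF inhibitor SPRED1 (-0.63 ± 0.13) and the adaptor SH2B3 (-0.73 ± 0.10) fell as well. PHLDA1, an ERK-induced gene, went from 1010 and 1068 CPM to 497 and 541 CPM (-1.002 ± 0.13, adjusted p = 0.00359). The ETS factors ETV1 (-0.91 ± 0.13) and ETV4 (-1.03 ± 0.21) fell, and ETV5 (-0.42 ± 0.09) did so with the block. Most of the calls of DUSP5, SPRED1, SH2B3, ETV1 and ETV4 without the block ended when the sorafenib library of experiment 1 was left out. ERRFI1 and PHLDA1 kept their calls except without the sorafenib library of experiment 1 (adjusted p = 0.0896 and 0.0626) and, for ERRFI1, the DMSO library of experiment 2 (0.0532).

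Members with lower expression or a smaller change passed only with the block. EGR1, an immediate early zinc finger factor induced through ERK, was at 11.9 and 10.2 CPM in DMSO and at 3.21 and 2.49 CPM under sorafenib. Its groups were well apart, yet its adjusted p was 0.15 without the block and 0.00209 with it (-1.92 ± 0.37, and 0.0601 without the sorafenib library of experiment 2). FOSL1, the AP-1 subunit that marks this line, was at 203 and 238 CPM against 107 and 173 CPM (-0.68 ± 0.12 with the block, adjusted p = 0.000966, and 0.051 without the sorafenib library of experiment 1). The cell cycle genes MYC (-0.39 ± 0.09) and CCND1 (-0.36 ± 0.08) fell by less than 1.5-fold with the block. The 6 members called in neither fit were SPRED2, GDF15, RASA2, DUSP7, UPP1 and EPHA4, and EPHA4 was the single one with a positive log2 change (0.30).

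**Figure D2:**
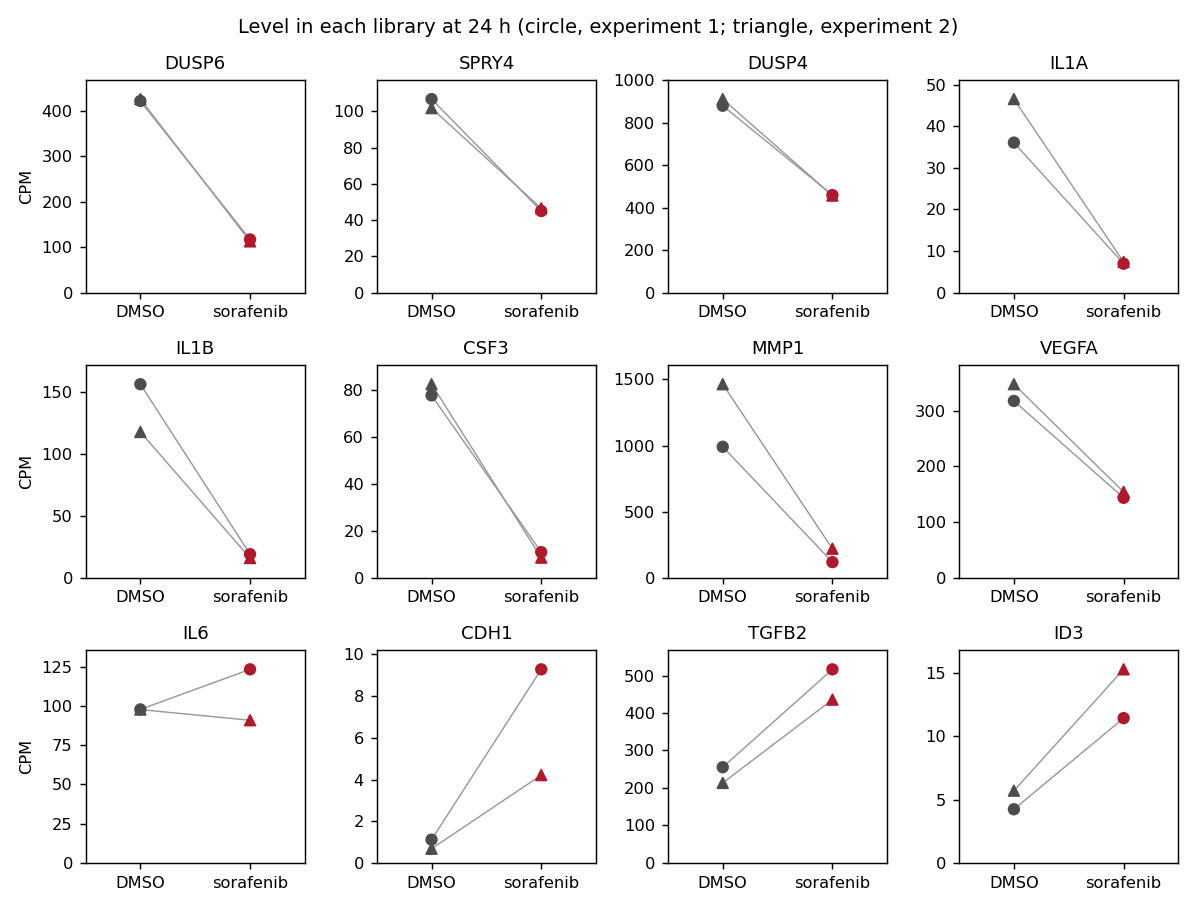
Levels in CPM (linear axes from 0) of 12 genes in the DMSO and sorafenib libraries at 24 h, with circles for experiment 1, triangles for experiment 2 and lines joining libraries of the same experiment. DUSP6, SPRY4, DUSP4, IL1A, IL1B, CSF3, MMP1 and VEGFA are lower and CDH1, TGFB2 and ID3 higher under sorafenib in both experiments, whereas the IL6 lines diverge.

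The messages of the kinases themselves gave 1 call. Of 18 tested genes for sorafenib targets and the RAS-RAF-MEK-ERK chain, 0 passed without the block, and with it MAP2K1, encoding MEK1, fell (-0.28 ± 0.07, adjusted p = 0.019), beside 3.81% of all genes. MAP2K1 lost this call without the DMSO library of experiment 2 (0.179) or either sorafenib library (0.235 and 0.056). BRAF was at 6.86 and 7.97 CPM in DMSO against 8.15 and 9.2 CPM (log2 change 0.23 ± 0.22). The VEGF receptor gene KDR was at 8.87 to 10.3 CPM in all 4 libraries.

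Of the immediate early list, 2 of 29 tested members fell and 0 rose, and with the block 7 fell and 1 rose. Over all genes tested 0.574% fell and 0.244% rose, and with the block 3.81% and 3.37%. The survival gene MCL1 (501 and 518 against 390.2 and 373 CPM, -0.42 ± 0.06) and the matricellular growth factor gene CTGF (298 and 260 against 157 and 174 CPM, -0.75 ± 0.15) fell in both fits. Neither MCL1 nor CTGF is among the genes named above that kept the call without the block whichever library was left out. IER2 (-0.63 ± 0.11), FOS (-1.16 ± 0.24), JUN, NR4A2 and DUSP1 fell with the block, and JUND rose (0.53 ± 0.11, adjusted p = 0.00308, but 0.154 without the sorafenib and 0.0901 without the DMSO library of experiment 1). With the block, AP-1 subunit genes thus moved in both directions. FOS itself was low, at 2.84 and 3.16 CPM in DMSO and 1.18 and 1.5 CPM under sorafenib.

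Cytokine genes held several of the largest falls. Of 27 tested cytokines and chemokines, 7 fell and 1 rose, and with the block 11 fell and 5 rose; the median of the list was -0.14, so that most of the list did not follow its extremes. CSF3, encoding the neutrophil growth factor G-CSF, stood at 77.5 and 82.3 CPM in DMSO and 10.9 and 8.53 CPM under sorafenib (-3.03 ± 0.17, adjusted p = 4.27e-06). IL1B, a secreted initiator of inflammation, stood at 156 and 118 CPM against 19.0 and 15.9 CPM (-2.97 ± 0.27, adjusted p = 0.000393). IL1A, which acts on the same receptor, stood at 36.1 and 46.6 CPM against 6.96 and 7.37 CPM (-2.53 ± 0.27, adjusted p = 0.00119). These 3 genes were 5-fold or more lower in each experiment, and they kept their calls with any 1 library left out.

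TNFSF15, encoding the TNF family ligand TL1A, went from 330 and 352 CPM to 65.3 and 100 CPM (-2.05 ± 0.26, adjusted p = 0.00359, and 0.0638 without the sorafenib library of experiment 1). IL11, an IL-6 family cytokine, went from 285 and 298 CPM to 95.4 and 108 CPM (-1.52 ± 0.21, adjusted p = 0.00488). LIF, of the same family, fell by 0.69 ± 0.08 and the granulocyte-macrophage factor gene CSF2 by 0.74 ± 0.11 on the log2 scale. The calls of IL11, LIF and CSF2 without the block ended when the sorafenib library of experiment 1 was left out. IL11 and LIF also stand in the ERK list and were counted in both. IL6 was at 97.8 and 97.7 CPM in DMSO and at 123 and 90.9 CPM under sorafenib. Its values moved apart between the experiments (0.13 ± 0.20, adjusted p = 0.965, and 0.751 with the block).

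IL8, the neutrophil chemokine gene now named CXCL8, was at 958 and 701 CPM in DMSO and at 716 and 425 CPM under sorafenib. The groups overlapped, experiment 2 lay lower in both, and IL8 fell with the block only (-0.56 ± 0.11, adjusted p = 0.00365, against 0.496). With the block IL8 lost the call without the DMSO library of experiment 1 (0.0523) or the sorafenib library of experiment 2 (0.119). PTGS2, encoding the prostaglandin synthase COX-2, was at 66.8 and 34.1 against 22.5 and 10.6 CPM and likewise fell with the block (-1.60 ± 0.18, adjusted p = 8.08e-06, against 0.129). The neutrophil chemokine genes CXCL1 (-0.14 ± 0.21) and CXCL2 (-0.34 ± 0.23) passed in neither fit, while CXCL3, of the same family, fell with the block from 30.4 and 22.5 CPM to 20.5 and 9.64 CPM (-0.80 ± 0.19, adjusted p = 0.0119). CSF1, the macrophage growth factor gene, was at 365 and 358 against 415 and 384 CPM and passed in neither fit. The single cytokine that rose in both fits was TGFB2, from 255 and 213 CPM to 516 and 435 CPM (1.02 ± 0.14, adjusted p = 0.00443). TGFB2 lost its call without the block when the sorafenib library of experiment 1 (0.079) or the DMSO library of experiment 2 (0.09) was left out. IL18, of the IL-1 family (0.74 ± 0.10), IL15, IL32 and CXCL16 rose with the block.

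The NF-kB list, holding subunits and feedback genes of the factor that also drives many cytokines, changed in few members. BCL2A1, an anti-apoptotic gene, fell from 5.08 and 7.01 CPM to 1.31 and 1.44 CPM (-2.13 ± 0.27, adjusted p = 0.00359, and 0.0768 without the sorafenib library of experiment 1). It was the single call among 27 tested members; with the block 3 fell and 2 rose, IER3 (-0.90 ± 0.08) and TNIP1 (-0.33 ± 0.07) among the falls and SOD2 (0.39 ± 0.09) among the rises. IER3 kept the call with the block whichever library was left out. TNIP1 lost it when either library of experiment 2 was left out, and SOD2 when either library of experiment 1 was. The median of the list was 0.03, and over all genes tested 3.81% fell and 3.37% rose with the block.

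Promoter sequences are shown for 4 of the lowered cytokine and protease-receptor genes, of which IL8 fell with the block only. They are shown because each holds the AP-1 letters TGANTCA upstream of its start. These genes were picked after their values were seen. Each run is 61 bases of the gene's strand from RefSeq (GRCh38.p14), with the match in capitals; the counts themselves were made on hg19 by the authors, and no hg19 position is given.
TNFSF15, chr9:114792617-114792677, minus strand: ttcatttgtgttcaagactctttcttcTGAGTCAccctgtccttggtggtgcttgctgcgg
IL11, chr19:55370526-55370586, minus strand: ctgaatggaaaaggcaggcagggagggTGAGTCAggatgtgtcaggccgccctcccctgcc
PLAUR, chr19:43670322-43670382, minus strand: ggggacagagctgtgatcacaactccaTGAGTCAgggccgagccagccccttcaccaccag
IL8 (CXCL8), chr4:73740405-73740465, plus strand: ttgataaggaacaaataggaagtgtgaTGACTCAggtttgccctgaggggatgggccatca

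The matches begin 120, 96, 186 and 137 bases upstream of the start in the order shown. In promoters of 300 bases (250 before the start and 50 after) the AP-1 letters, which read the same on both strands, were present in 9.37% of 27305 genes in the RefSeq table and in 7.26% of the 10654 promoter genes matched to tested genes. Of the 80 genes that fell, 63 had a promoter in the table and 12 of these (19%) held the letters, as did 1 of 27 genes that rose (3.7%). With the block the shares were 58 of 394 genes that fell (14.7%) and 28 of 358 that rose (7.82%). IL1A also held the letters, in a promoter with 2 listed starts. Other lowered genes, IL1B, CSF2, CXCL3, PLAU and MMP14 among them, did not hold them, whereas ERBB2, which rose with the block, did. A serum response element core (CC and GG on either side of 6 bases that are A or T) was found in 3.05% of the 394 promoters of fallen genes, 1.63% of the matched tested genes and 1.6% of all 27305, EGR1 among them. TGATGNAA, a core bound by ATF4, and the sterol element TCACNCCAC were found in 4.31% and 1.27% of the 394 against 4.46% and 1.39% of all and 2.89% and 1.47% of the matched tested genes. The motifs other than AP-1 were searched on both strands. These are matches of letters in a fixed window, with no test and no evidence of binding.

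Angiogenic ligands were lower for a minority of the list. Of 32 tested members, 3 fell and 0 rose, and with the block 8 fell and 1 rose, with a median of -0.13. VEGFA, the main growth factor of blood vessels, was at 318 and 348 CPM in DMSO and at 144 and 154 CPM under sorafenib. Its libraries did not overlap and VEGFA fell by 1.16 ± 0.18 on the log2 scale (adjusted p = 0.0101). It was called without the DMSO library of experiment 1 (0.0422) and not without the other DMSO library (0.0938) or either sorafenib library (0.155 and 0.056); with the block the highest adjusted p of such fits was 9.55e-05.

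HBEGF, an EGF receptor ligand, went from 151 and 151 CPM to 79.9 and 87.4 CPM (-0.85 ± 0.08, adjusted p = 0.000457). The Notch ligand JAG1 went from 177 and 197 CPM to 86.2 and 98.5 CPM (-1.02 ± 0.18, adjusted p = 0.0231, and 0.281 without the sorafenib library of experiment 1). TGFA (-0.72 ± 0.09), the VEGF family member PGF (-0.69 ± 0.14) and the VEGF co-receptor NRP1 (-0.27 ± 0.07) fell with the block. THBS1, an inhibitor of angiogenesis, was at 1598 and 1375 CPM in DMSO and 1561 and 1347 CPM under sorafenib (log2 change -0.03 ± 0.11). VEGFC, VEGFB and the hypoxia factor gene HIF1A passed in neither fit, at -0.08, 0.00 and -0.11.

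ANGPTL4 and ESM1, both secreted and vessel-related, differed strongly in level between the experiments. ANGPTL4, an inhibitor of lipoprotein lipase that responds to hypoxia, was at 7.86 and 31.5 CPM in DMSO and at 1.27 and 5.98 CPM under sorafenib. The endothelial proteoglycan gene ESM1 was at 3.68 and 17.1 against 0.211 and 2.55 CPM. In each experiment the sorafenib library was the lower, and both genes fell with the block only (ANGPTL4 -2.44 ± 0.24, adjusted p = 1.54e-06; ESM1 -3.02 ± 0.31, adjusted p = 2.52e-06). Of the hypoxia and glycolysis list, 0 of 31 passed without the block, while with it NDRG1 (-0.72 ± 0.10), PFKFB3 (-0.50 ± 0.08), HK2, ENO2 and LDHA (-0.28 ± 0.07) fell and EGLN3 rose. With the block 3.81% of all genes fell and 3.37% rose. The groups overlapped for NDRG1, PFKFB3 and ENO2. NDRG1 and PFKFB3 kept the call with the block whichever library was left out. ENO2 and LDHA lost it without the sorafenib library of experiment 1, among other omissions.

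Genes that degrade the extracellular matrix formed the other list with a low median, -0.59 over 27 tested members, of which 5 fell and 0 rose; with the block 14 fell and 1 rose. MMP1, the interstitial collagenase, was at 990.4 and 1464 CPM in DMSO and 118 and 219 CPM under sorafenib. It was among the most abundant of the changed genes, and it fell by 2.86 ± 0.47 on the log2 scale (adjusted p = 0.0153). The tissue plasminogen activator gene PLAT went from 494 and 700 CPM to 225 and 304 CPM (-1.17 ± 0.19, adjusted p = 0.0156). PLAUR, the receptor for urokinase, went from 148 and 183 CPM to 74.1 and 92 CPM (-0.998 ± 0.18, adjusted p = 0.0226). PLAUR lost this call when the sorafenib library of experiment 1 was left out. MMP1 and PLAT each lost the call without the sorafenib library of experiment 1 (0.221 for both) or the DMSO library of experiment 2 (0.105 and 0.128).

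With the block the urokinase gene PLAU (-0.90 ± 0.10), the membrane collagenase gene MMP14 (-0.60 ± 0.08), the stromelysin MMP3 (-2.31 ± 0.28) and the gelatinase MMP9 fell too. MMP9 differed more between the experiments than between treatments, at 3.18 and 36.7 CPM in DMSO and 0.591 and 5.32 CPM under sorafenib (-2.67 ± 0.25, adjusted p = 8.47e-07, against 0.622 without the block). Inhibitors moved in the same direction as the proteases. TIMP3 went from 723 and 654 CPM to 387 and 421 CPM (-0.77 ± 0.11) and TIMP1 fell by 0.54 ± 0.11. The serpin SERPINB2, at 15.5 and 0.904 CPM in DMSO and 3.84 and 0.332 CPM under sorafenib, fell with the block only (-1.97 ± 0.20; adjusted p = 0.195 without the sorafenib library of experiment 1), and its log2 change without the block turned to 1.28 when the DMSO library of experiment 1 was left out.

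The TGF-beta, mesenchymal and matrix list moved in both directions, with 3 falls and 1 rise of 40 tested (8 and 6 with the block) and a median of -0.02. Among all genes 0.574% fell and 0.244% rose, and with the block 3.81% and 3.37%. The collagen receptor subunit gene ITGA2 went from 402 and 476 CPM to 188 and 209 CPM (-1.14 ± 0.15, adjusted p = 0.00477). The TGF-beta receptor gene TGFBR2 (-0.77 ± 0.13) fell, as did the matrix glycoprotein gene TNC with the block (-1.05 ± 0.11). ID3, an inhibitor of helix-loop-helix factors that responds to BMP signals, rose from 4.24 and 5.71 CPM to 11.4 and 15.3 CPM (1.42 ± 0.26, adjusted p = 0.0235). Without the block the call of ITGA2 ended without the sorafenib library of experiment 1 (0.0774), and those of TGFBR2 and ID3 ended in all 4 leave-outs (highest adjusted p = 0.221 and 0.181).

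Of all genes tested the largest rise was that of CDH1, encoding the epithelial adhesion protein E-cadherin, which this line nearly lacks. CDH1 was at 1.12 and 0.678 CPM in DMSO and at 9.29 and 4.21 CPM under sorafenib. The level stayed low while the log2 change was 2.91 ± 0.58 (adjusted p = 0.0402, and 0.464 without the sorafenib library of experiment 1; with the block 5.84e-07). The epithelial ETS factor gene ELF3 rose with the block, from 7.81 and 6.72 CPM to 39.7 and 20.5 CPM (2.01 ± 0.23, adjusted p = 8.26e-06). LLGL2, a cell polarity gene, rose from 5.86 and 4.75 CPM to 12.7 and 11 CPM (1.16 ± 0.18), and MUC1 rose with the block (1.59 ± 0.30; adjusted p = 0.106 without the sorafenib and 0.0551 without the DMSO library of experiment 1). LLGL2 and MUC1 are outside the list of receptors and epithelial genes low in this line, of which CDH1 alone of 12 tested passed without the block. With the block ELF3 and ERBB2 (0.35 ± 0.08) rose too and TFF1 fell. ERBB2 lost this call when either library of experiment 1 was left out. The other 8 members passed in neither fit. EPCAM was at 11.7 to 15.7 CPM in all 4 libraries, the splicing factor gene ESRP1 stayed below 1 CPM, and CLDN4 was at 85.6 to 93 CPM. ZEB1, a repressor of CDH1, was at 95.5 and 104 against 71.3 and 90 CPM and fell with the block (-0.32 ± 0.09, adjusted p = 0.0327), while SNAI2, another, rose (0.41 ± 0.10).

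ATOH8, a helix-loop-helix factor gene, rose from 0.892 and 0.395 CPM to 4.69 and 3.66 CPM (2.69 ± 0.41, adjusted p = 0.00985). KIAA1199, whose product takes part in hyaluronan breakdown, rose from 30.8 and 39.4 CPM to 119 and 99.7 CPM (1.64 ± 0.23, adjusted p = 0.00605). The cyclic GMP phosphodiesterase gene PDE5A (1.57 ± 0.30), the phosphatase gene DUSP8 (1.40 ± 0.23), the atypical cadherin gene FAT4 (1.26 ± 0.24), the complement protease gene C1R (1.17 ± 0.24), the sodium channel gene SCN9A (1.11 ± 0.23) and STX11, a syntaxin (1.27 ± 0.21), rose as well. DUSP8, which acts mainly on JNK and p38, thus rose while the ERK phosphatases DUSP4, DUSP5 and DUSP6 fell. Among the largest falls outside the lists was the superoxide-producing oxidase gene NOX5, from 9.65 and 11.2 CPM to 0.886 and 1.16 CPM (-3.35 ± 0.39, adjusted p = 0.00215, and 0.0626 without the sorafenib library of experiment 1). G0S2, a lipase inhibitor (-1.71 ± 0.33), and the calcium-regulating hormone gene STC1 (-1.68 ± 0.34) also fell. Without the sorafenib library of experiment 1 the calls of these rises and of G0S2 and STC1 ended, with adjusted p from 0.0867 for KIAA1199 to 0.615 for C1R.

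The secreted protease inhibitors CST1 and CST4 are close paralogs, so that reads may be shared between them. CST1 was at 50.6 and 169.6 CPM in DMSO and at 6.71 and 21.7 CPM under sorafenib, and CST4 at 19.1 and 54.7 against 3.63 and 10.6 CPM. Both were about 3 times as high in experiment 2, and both fell with the block (CST1 -2.93 ± 0.14, adjusted p = 9.45e-11; CST4 -2.37 ± 0.16, adjusted p = 1.69e-08).

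The stress and mitochondrial lists gave 0 calls without the block and 1 to 3 each with it, beside 3.37% of all genes rising and 3.81% falling with the block. Of 41 tested ATF4 targets of the integrated stress response, 0 passed without the block, and with it JDP2 (0.89 ± 0.19) and the amino acid transporter gene SLC7A5 (0.30 ± 0.09) rose. Without the sorafenib library of experiment 1 these had adjusted p = 0.218 and 0.313, and 0 or 1 member rose in each leave-out with the block. ATF4 itself was at 162 and 134 against 158 and 127 CPM. Of 26 endoplasmic reticulum chaperone and unfolded protein genes 0 passed, and with the block the sensor kinase gene ERN1 fell (-0.60 ± 0.16, and adjusted p = 0.166 without the sorafenib library of experiment 1). Of 30 NRF2 and ferroptosis genes 0 passed, and with the block TXNRD1 (0.31 ± 0.08) and the iron exporter gene SLC40A1 rose while PTGS2 fell. Both rises lost the call with the block whichever library was left out (adjusted p up to 0.259 and 0.247). The respiratory chain list gave 0 calls of 31, and with the block UCP2 and the coactivator gene PPARGC1A rose, the latter from 9.7 and 9.32 CPM to 17.6 and 16.9 CPM (0.86 ± 0.14, adjusted p = 0.000416). Of 10 housekeeping genes tested none passed in either fit, and their log2 changes ran from -0.21 to 0.19. The heat shock list gave 1 rise of 27 with the block (DNAJB4) and the drug-handling list 1 fall of 12 (CYP1A1), with adjusted p = 0.342 and 0.217 without the sorafenib library of experiment 1.

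Of 30 tested genes of cholesterol and fatty acid synthesis, 0 passed without the block. The median log2 change was 0.18, with 3 negative values, beside a median of -0.0042 over all genes. With it 5 rose, against 3.37% of all genes, among them HMGCS1 (0.72 ± 0.13), INSIG1 (0.52 ± 0.11), SREBF2 (0.34 ± 0.09) and LSS (0.32 ± 0.09). HMGCS1, an early enzyme of the mevalonate pathway, was at 42.9 and 38.9 CPM in DMSO against 78 and 56.7 CPM. With the block and 1 library left out, 0 to 5 of the list rose, 0 without the sorafenib library of experiment 1 and 1 without the DMSO library of experiment 1.

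Of 33 tested interferon-stimulated genes 0 passed, and with the block 8 rose and 0 fell, with a median of 0.22, 7 negative values and a lowest value of -0.44. Beside this list and the mitosis and replication lists below, 3.37% of all genes rose and 3.81% fell with the block. IFIT2, IFIT3 and IFIT1, which bind foreign RNA, rose by 0.48 ± 0.10, 0.47 ± 0.10 and 0.59 ± 0.13, and the signal transducer gene STAT2 by 0.45 ± 0.10. ISG15 (-0.03) and MX1 (0.22) passed in neither fit. These 8 calls became 1 without the DMSO library of experiment 1, 3 without the sorafenib library of experiment 1, 4 without that of experiment 2 and 6 without the DMSO library of experiment 2. Of 42 mitosis and G2/M genes 0 passed and with the block 3 rose, the cyclin gene CCNA2 (0.38 ± 0.07), the kinesin KIF23 (0.34 ± 0.07) and the spindle kinase TTK (0.29 ± 0.08), with a median of 0.17 and 2 negative values. With 1 library left out, 0 to 2 mitotic genes rose with the block, 0 without the sorafenib library of experiment 1 and 1 without the DMSO library of experiment 2. Of 46 replication and E2F genes 1 fell with the block, the G1 cyclin gene CCNE1 (-0.49 ± 0.12, adjusted p = 0.294 without the sorafenib library of experiment 1), and the median was 0.03.

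TNFRSF10B, a receptor for the ligand TRAIL, fell in both fits (272 and 299 against 199 and 218 CPM, -0.45 ± 0.07). Without the block it lost the call without the sorafenib library of experiment 1 (adjusted p = 0.182) or the DMSO library of experiment 2 (0.105). With the block the cell cycle inhibitor gene CDKN1A fell as well, from 86.9 and 168 CPM to 36.7 and 68.8 CPM (-1.27 ± 0.12, adjusted p = 1.68e-06, against 0.408), while the stress-response genes GADD45A (0.67 ± 0.13) and PLK2 (0.42 ± 0.09) rose, with adjusted p = 0.11 and 0.17 without the sorafenib library of experiment 1.

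**Figure D3:**
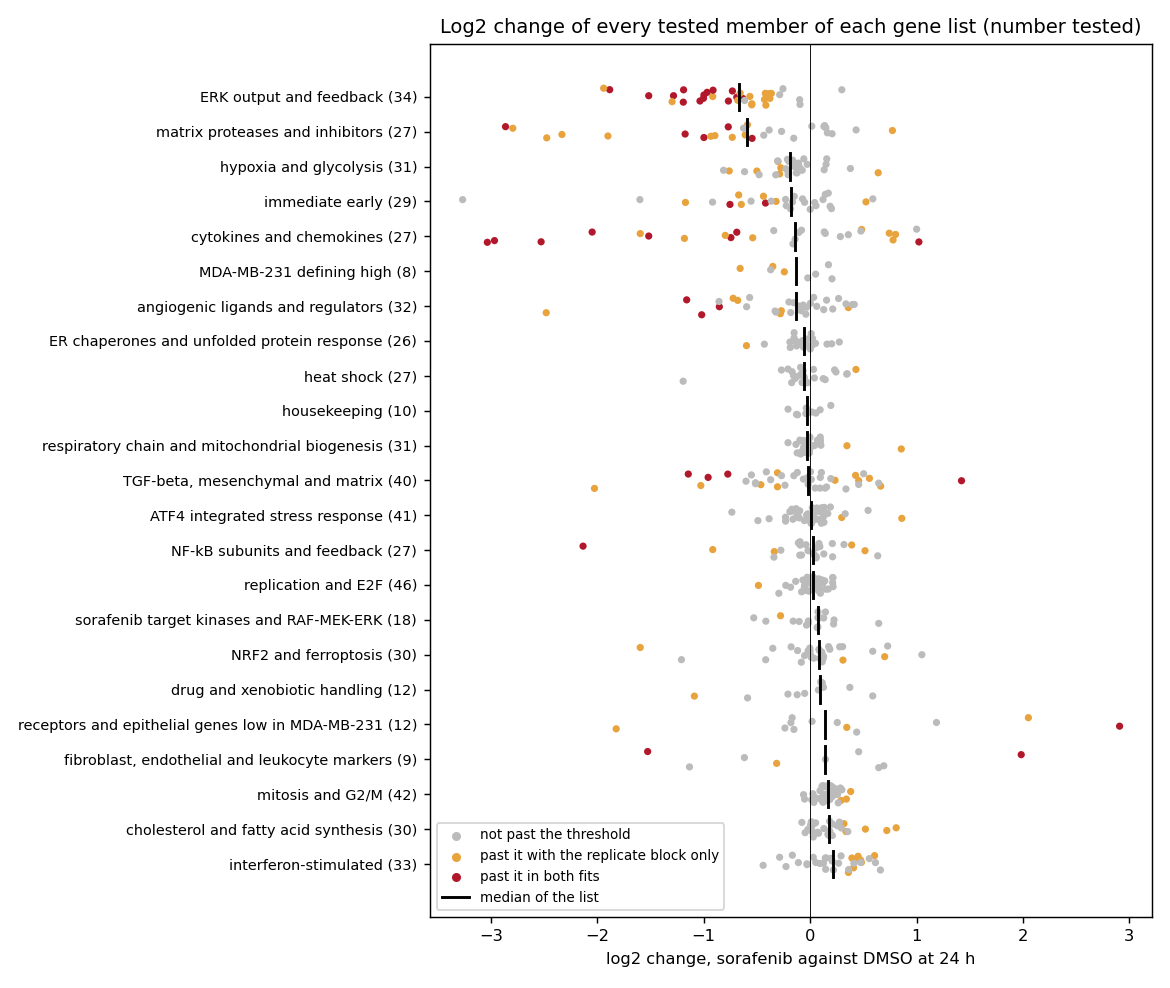
Log2 change at 24 h (x axis) of each tested member of 23 gene lists (y axis, number tested in brackets), coloured by whether it passed in both fits, with the replicate block only, or in neither; black bars are list medians. The ERK output list (median -0.67) and the list of matrix proteases and inhibitors (median -0.59) lie furthest to the left, and the stress and housekeeping lists centre near 0.

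Of 9 tested markers of fibroblasts, endothelium and leukocytes, 1 rose and 1 fell without the block, beside 0.244% and 0.574% of all genes, and with the block CD68 fell too. PECAM1, an endothelial adhesion gene also present at low level here, fell from 5.91 and 6.78 CPM to 1.82 and 2.6 CPM (-1.53 ± 0.30), and the matrix proteoglycan gene LUM rose from 0.837 and 0.791 CPM to 3.42 and 3.05 CPM (1.98 ± 0.35). Neither PECAM1 nor LUM is among the genes named above that kept the call without the block whichever library was left out. The macrophage gene CD68 was at 119.96 and 163 against 99.95 and 128 CPM (-0.31 ± 0.07 with the block, adjusted p = 0.00833, and up to 0.11 with 1 library left out). The summed level of the list was 165 and 216.4 CPM in DMSO and 152.5 and 182.9 CPM under sorafenib, mostly from CD68, which tumour lines also express. COL1A1 (13 and 13.7 against 18.5 and 18.1 CPM), PDGFRB (7.42 and 7.29 against 12.1 and 10.9 CPM) and CD14 passed in neither fit, VWF, CDH5 and COL3A1 stayed below 3 CPM, and a part of other cells in these results was not tested. The markers of the line itself passed in none of 8 cases without the block, and with it FOSL1, CD44 (-0.35 ± 0.07) and MSN (-0.24 ± 0.07) fell. FOSL1, CD44 and MSN each lost this call when the sorafenib library of experiment 1 was left out.

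The same treatment at 8 h, in libraries that share none with those at 24 h, asked how early the changes were present. All 114 genes called at 24 h had the same sign at 8 h, as did 65.1% of all genes tested. Of these, 42 were also called at 8 h (36.8% of the calls at 24 h and 76.4% of the 55 at 8 h). With the block 516 were called at both times, 51.5% of the 1001 calls at 24 h and 73.5% of the 702 at 8 h (5.03% of genes tested), and 0 were called in opposite directions. The median size of the change in the 114 genes was 0.87 at 24 h and 0.63 in the same direction at 8 h, where the choice of genes by their values at 24 h favours that time.

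DUSP6 had fallen by 1.25 ± 0.09 on the log2 scale at 8 h, against 1.88 at 24 h, and SPRY4 by 0.91 ± 0.11 against 1.19. IL1B (-2.74 ± 0.27), CSF3 (-2.75 ± 0.18) and VEGFA (-1.25 ± 0.18) were at 8 h close to their values at 24 h. CDH1 was at a log2 change of 1.67 ± 0.56 at 8 h (adjusted p = 0.375, and 0.000495 with the block) and 2.91 at 24 h. ATOH8 was at 3.19 ± 0.45 and 2.69. The test of the difference between times called 0 genes without the block, with the block and in DESeq2, with 150, 495 and 74 genes at an unadjusted p under 0.05. DUSP6 had the value -0.63 ± 0.10 (24 h minus 8 h, adjusted p = 0.0825 with the block), so that a growing effect did not pass the test. With 2 libraries a group, this does not show that the effects at the 2 times are alike.

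Sorafenib was also present with MMS, and the combination against MMS at 24 h gives the sorafenib effect in other libraries, with sorafenib on for 12 h longer. Of the 114 genes, 113 had the same sign there (63.4% over all genes) and 13 were called (11.4% of the 114 and 76.5% of the 17 called there). With the block 214 were shared, 21.4% of the 1001 calls and 75.6% of the 283 calls in MMS-treated cells (2.03% of genes tested). The median size was 0.49 against 0.87. IL1B (-3.21 ± 0.29), IL1A (-2.20) and MMP1 (-2.54 ± 0.46) stood beside -2.97, -2.53 and -2.86 without MMS, and ATOH8 (2.93 ± 0.61) beside 2.69. In MMS-treated cells IL1B and IL1A passed in both fits, and MMP1 and ATOH8 with the block only.

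A direct test of the difference, the interaction, called 0 genes without the block (304 at an unadjusted p under 0.05), 1 in DESeq2 and 4 with the block (0.0287%). DUSP6 was the clearest. It stood at 211 and 181 CPM under MMS and at 105 and 104 CPM in the combination. DUSP6 was thus lower under MMS than in DMSO (421 and 425 CPM), and in the combination it was near sorafenib alone (117 and 113 CPM). Its log2 change was -0.90 ± 0.09 in MMS-treated cells against -1.88 ± 0.10 alone, a difference of 0.98 ± 0.10 with the block (adjusted p = 0.000161, and 0.103 without the block). SPRY4 gave 0.71 ± 0.14 and missed the threshold with the block (adjusted p = 0.0858). VEGFA was at 91.8 and 139 CPM under MMS and at 62.2 and 69.8 CPM in the combination, and its difference of 0.37 ± 0.15 did not pass (adjusted p = 0.653 with the block).

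**Figure D4:**
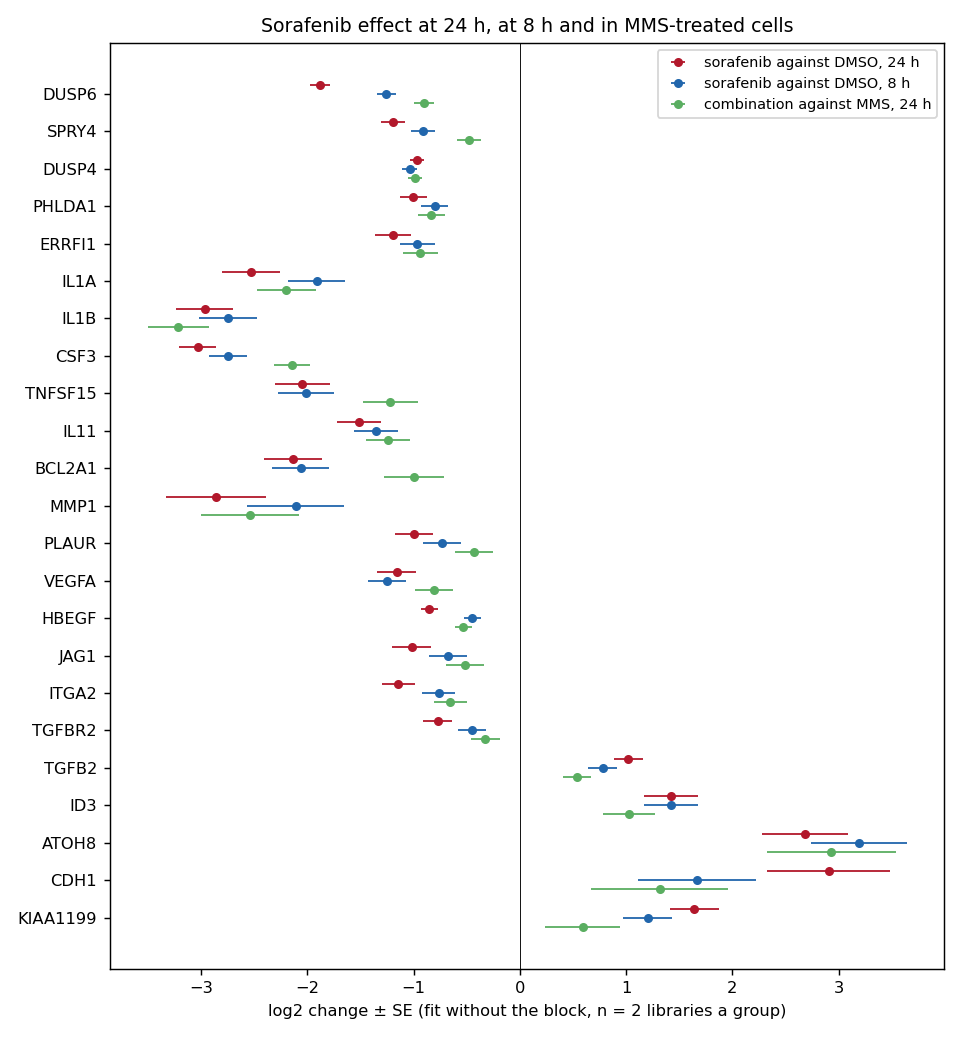
Log2 change ± SE of 23 genes (fit without the block, n = 2 libraries a group) for sorafenib against DMSO at 24 h, sorafenib against DMSO at 8 h, and combination against MMS at 24 h. All 23 genes keep their direction in the 3 comparisons, and DUSP6 shows a smaller fall with MMS (-0.90) than without (-1.88).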

How the data were processed

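RNA from 16 libraries of MDA-MB-231 cells, 2 for each of 8 groups, was analysed. The authors deposited raw read counts per gene; per the submitters' processing notes, CASAVA 1.8.2, TopHat2 2.0.8b, HTSeq and hg19 were used. Annotation, strand setting and HTSeq version are not given in the sources used here, so reads of paralogs or overlapping genes cannot be traced. Counter entries that name no gene (37.6 to 39.9% of the records) were left out. Totals per library were 16774156 to 26448212.

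In R 4.3.3, edgeR 4.0.16 was fitted to the counts of all 16 libraries with 1 mean per group (filterByExpr, TMM, quasi-likelihood tests, adjusted p under 0.05), and tested on simulated data. CPM are TMM-scaled, and a standard error is the log2 change over the root of its F. Biological variation was 0.136, and 0.0632 with the title start as replicate block (8 and 7 residual degrees of freedom). Titles carry no replicate numbers. Deviations from group means correlated between libraries of the same title start in all 28 group pairs (0.488 to 0.709, median 0.639), and 0.675 for DMSO and sorafenib at 24 h, so the block was taken as pairing.

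The rule for named genes took the 12 largest called changes per direction and fit, where the 4 libraries averaged 50 counts or more and groups did not overlap, up to 4 called members per list (2 of smallest p where none was called), 8 genes always, and 5 per direction for differences. Some genes the rule took are not reported here. Other genes are named after their values were seen. The members and lists were chosen with earlier results of these data known. Tried besides were DESeq2 1.42.0, RLE factors, a stricter filter (50 counts on average) or none, the block, a fit of the 4 libraries alone, each library left out and, added after seeing the data, ratios within an experiment (prior count 2). Gene names are as deposited; 75 of 101 named genes matched a RefSeq promoter.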

Additional observations from a re-analysis of the deposited data

Results flagged for a closer look

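The following genes differed in their response to sorafenib between cells with and without MMS at 24 h by the interaction test, with the replicate block only and 2 libraries a group. Values are the log2 change in MMS-treated cells minus that in cells without MMS. DUSP6 differed by 0.984 ± 0.102 (SE, adjusted p = 0.000161), falling less with MMS. CST1 differed by 1.319 ± 0.219 (adjusted p = 0.0341), with a log2 change of -1.61 in MMS-treated cells against -2.93; its paralog CST4 may share its reads. LPXN, encoding the focal adhesion adaptor leupaxin, differed by 0.721 ± 0.110 (adjusted p = 0.0145). LPXN went from 113 and 85.7 CPM to 49.6 and 39.9 CPM with sorafenib alone, and from 86.3 and 56.5 CPM to 62.6 and 43.1 CPM with MMS. LOC647979, an uncharacterised locus, differed by -0.697 ± 0.103 (adjusted p = 0.0141), at 506 and 529 CPM under MMS against 263 and 286 CPM in the combination and at 390.4 and 464 against 364 and 366 CPM without MMS. Cells in the combination had sorafenib 12 h longer, and the length of exposure and the presence of MMS cannot be told apart.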

How the results depend on the processing

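The count of 114 genes at 24 h became 294 in DESeq2 (37.8% higher against 29.8%), 1001 with the replicate block (47% higher), 913 in DESeq2 with the block, 5 with only the 4 libraries compared (fewer degrees of freedom) and 1207 with these 4 and the block. RLE factors (117), no filter (171) and a mean count of at least 50 (120) stayed within 1.5 times. Without 1 library the count was 12 to 75, and with the block 695 without the DMSO library of experiment 1, 621 without that of experiment 2, 363 without the sorafenib library of experiment 1 and 733 without that of experiment 2. Where 1 library remained in a group, its spread was taken from the other groups. The 55 calls at 8 h became 177 in DESeq2, 101 without the filter, 702 with the block and 5 to 17 without 1 library. The 17 calls in MMS-treated cells became 86, 43, 283 and 3 to 6. The interaction called 1 gene in DESeq2, 1 without the filter and 4 with the block, and the difference between times 0 throughout. Of the 101 named genes, those with a changed sign were ATF4 (from -0.2373 to 0.1054 with 1 library left out, positive at 0.08983 without the DMSO library of experiment 1), IL6 (-0.1205 to 0.3483, and -0.1074 with the block and without the sorafenib library of experiment 1) and SERPINB2 (-4.626 to 1.279). The cause was not tested. The block changed the call of 57 named genes, all from not called to called.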

Other observations

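Further genes called in both fits stood outside the lists; they were picked after their values were seen. HMGA1, a chromatin architectural gene, fell from 1332 and 1471 CPM to 658 and 874 CPM. The phosphate transporter gene SLC20A1 (466 and 475 against 218 and 252 CPM), the anthrax toxin receptor gene ANTXR2 (-0.996 ± 0.11) and NAMPT, an enzyme of NAD synthesis (-0.76 ± 0.10), fell to similar extents in both experiments. The metallothionein genes MT1X (-0.75 ± 0.14) and MT2A (-0.62 ± 0.12) fell, and members of this family can share reads. TNFRSF10D, a decoy receptor for TRAIL, fell by 0.92 ± 0.15 on the log2 scale.

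The actin-binding genes PALLD (195 and 168 CPM in DMSO against 281 and 264 CPM under sorafenib), ENAH (0.54 ± 0.09) and NEXN (0.59 ± 0.09) rose, as did the heparan sulfate proteoglycan genes SDC2 (0.64 ± 0.11) and SDC4 (0.56 ± 0.11). The Wnt receptor gene FZD7 (0.64 ± 0.09) and the neurotrophin gene BDNF (0.52 ± 0.10) rose, with no overlap between the groups. With only the 4 libraries compared and no block, 5 genes fell and 0 rose, so none of these rises was called. Their calls from all 16 libraries without the block also ended when the sorafenib library of experiment 1 was left out. The keratin-associated gene KRTAP4-8, at 0.335 and 0.734 CPM in DMSO, was at 0 in both sorafenib libraries and was called on a mean of 5 counts, so no fold is given.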
